A study of Prunus persica with 20 samples.

Results

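MN, the Maravilha nectarine mutant, was compared with TN7, a peach, in RNA sequencing of young fruit of *Prunus persica*. The comparison takes every labelled MN and TN7 library with a column in the count table: 9 of its 19 libraries, 5 of MN and 4 of TN7 (TN7 4 was not analysed here). MN arose from a peach and bears smooth fruit, TN7 is a hairy peach, and both carry the stated genotype Gg at the G locus. All fruit was collected at fruit set, with no treatment, and the stated aim of the study was to learn how fruit hairs are regulated, above all in MN. The other accessions were Sunraycer, a commercial nectarine stated gg, and TN11, a peach stated GG, with 5 libraries each. MN and TN7 are 1 accession each, so a difference of fruit surface cannot be told apart from any other difference between the accessions, and nothing says whether replicates were separate trees or fruits.

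Peach fuzz consists of trichomes, hairs that grow out from single cells of the fruit epidermis. The G locus separates peaches, in which fuzz is dominant, from nectarines, in which the recessive homozygote is smooth, and it holds a MYB transcription factor needed for the hairs to start. A fruit that is heterozygous at G would normally be hairy, which is why a smooth fruit stated Gg is set against a hairy one with the same stated genotype. The RNA came from bulk fruit, so fewer cells of a type and less RNA per cell cannot be told apart. The table names its genes only by ID, 0 of its 26811 IDs occur in the reference gene table supplied with it, and no product names or sequences could be attached. Genes are therefore described by level, size of difference, place in the ID numbering and behaviour across accessions, and markers of other tissues could not be read.

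Depth overlapped between the groups, with totals of 16857056 to 24126571 counts in MN and 18693551 to 22385808 in TN7 (exact two-sided permutation test, p = 0.683). Levels are given as CPM, counts per 1000000 counts of a library whose size was scaled by TMM. Fewer genes reached 1 CPM in MN, 16814 ± 182 (SD, n = 5), than in TN7, 17208 ± 153 (SD, n = 4; exact permutation p = 0.0317). The 10 most abundant genes of a library held more of its transcripts in MN, 6.19% ± 0.613 (SD, n = 5), than in TN7, 4.61% ± 0.170 (SD, n = 4). That exact permutation p was 0.0159, the smallest that 5 against 4 libraries can give, and with adjustment over these 3 measures both differences had p = 0.0476.

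TN7 2 and TN7 5 stood apart from TN7 1 and TN7 3. On the first principal component of the 9 libraries, with 60.05% of the variance, the MN libraries lay between −68.1 and −23.4. TN7 1 and TN7 3 lay at 32.7 and 29.6, and TN7 2 and TN7 5 farther from MN, at 77.2 and 85.3. The second component, with 20.5%, spread libraries within both groups and set TN7 5, at 47.4, near MN 4, at 46.3. Correlations of log2 CPM across genes were 0.963 to 0.990 within MN, 0.947 to 0.993 within TN7 and 0.875 to 0.960 between them. Counts of called genes and values of single genes are therefore mostly also given without TN7 2 and TN7 5, which leaves 2 TN7 libraries. Classes of level, shares by chromosome, windows, stretches, runs of higher genes and nearness to the other accessions are not given without them.

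**Figure D1:**
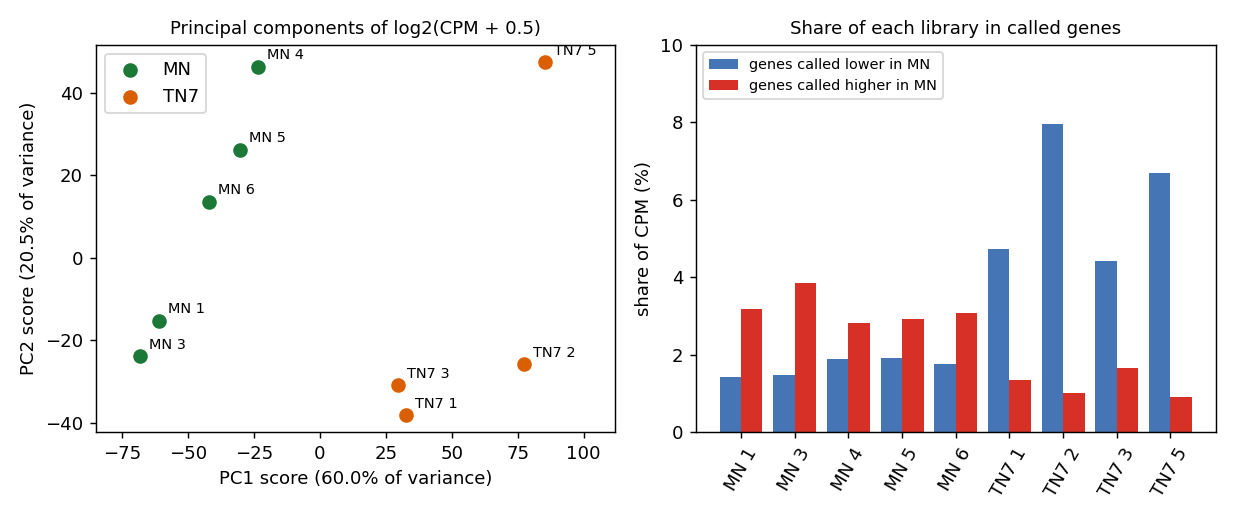
Left, scores of the 5 MN and 4 TN7 libraries on the first 2 principal components of log2(CPM + 0.5) over the tested genes; right, the share of each library's CPM (%) held by genes called lower and by genes called higher in MN. TN7 2 and TN7 5 lie farthest from MN on the first component, and they have the highest shares in the lower genes, 7.95% and 6.70%.

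Transcripts that were scarcer in the smooth fruit outnumbered those that were more abundant. Of 19360 tested genes, 1470 fell and 529 rose in MN relative to TN7 (edgeR quasi-likelihood test, Benjamini-Hochberg adjusted p below 0.05 and at least 2-fold), which is 7.59% and 2.73% of the tested genes and 10.3% in all. The lower genes had a median level of 1.30 CPM in MN and 6.52 CPM in TN7, against 18.3 and 19.4 CPM over all tested genes. The higher genes had a median of 5.30 CPM in MN and 1.203 CPM in TN7. Genes of low expression were called more often: 22.96% of the genes below 1 CPM (mean of both groups) were called, 20.3% of those at 1 to 5 CPM, 9.91% at 5 to 20 CPM, 4.57% at 20 to 100 CPM and 4.69% above 100 CPM. The filter on low counts can keep a gene of low mean through the accession where it is higher, and it drops genes that are low throughout. This can raise the called shares in the lowest classes, and its part in them was not tested. Lower genes outnumbered higher ones in each of these classes, by 328 to 145 in the lowest and by 81 to 25 in the highest.

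**Figure D2:**
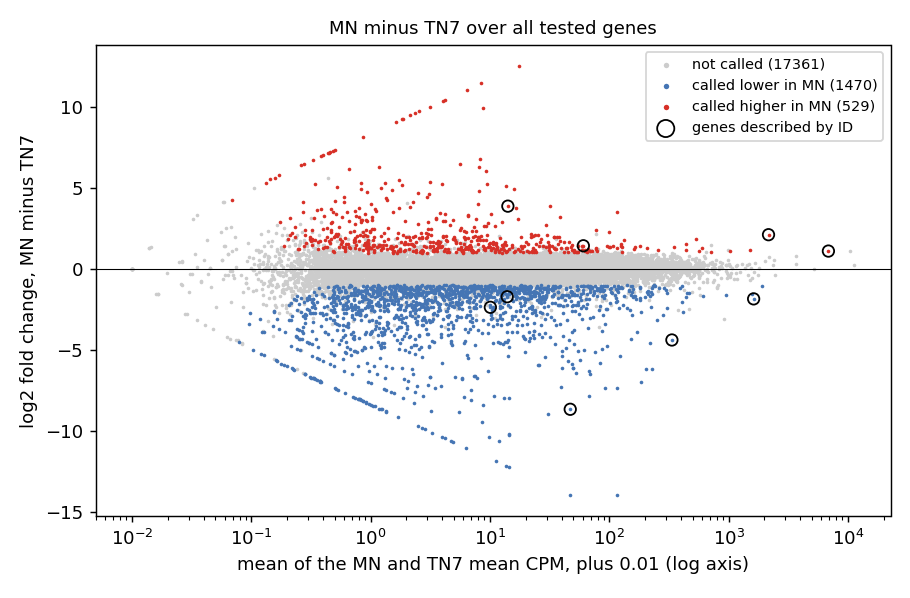
Log2 fold change of MN minus TN7 against the mean of both groups' CPM (log axis, 0.01 added) for the 19360 tested genes, coloured by call, with the 9 genes described by ID circled. Of the called genes, 1129 lower and 433 higher ones lie below 20 CPM, and the straight outer lines are genes without a count in one group, whose fitted fold depends on the prior count.

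Without TN7 2 and TN7 5, 791 genes were lower and 307 higher, and 767 of the 1470 lower and 264 of the 529 higher genes were among them. The 703 lower genes that were not called then had a median log2 fold change of −1.51 with all libraries and −1.01 without those 2, and 702 of them were still lower in MN. The lower genes were also higher in TN7 2 and TN7 5 than in TN7 1 and TN7 3, by a median of 0.468 on the log2(CPM + 0.5) scale and in 88.1% of them, against 0.0587 and 56.1% over all tested genes. Both choices favour such a difference: the genes were called with these libraries, and TN7 2 and TN7 5 were singled out for lying farthest from MN. The part of this difference within TN7 in the result was not tested.

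As a share of a library's transcripts, the lower genes made up 1.44%, 1.48%, 1.88%, 1.92% and 1.75% in MN 1, 3, 4, 5 and 6, against 4.72%, 7.95%, 4.42% and 6.70% in TN7 1, 2, 3 and 5. The higher genes made up 3.17%, 3.85%, 2.82%, 2.93% and 3.09% in MN, against 1.36%, 1.03%, 1.65% and 0.918% in TN7, in the same order of libraries. The groups did not overlap in either share, as the choice of the genes by this contrast would give, and no test applies. TN7 varied more than MN over all tested genes as well as among the lower ones, and both groups varied more among the lower genes. With at least 1 CPM in each group, the median coefficient of variation was 26.8% in MN and 34.9% in TN7 (804 lower genes). Over all tested genes at that level it was 12.3% and 16.2%. Among the higher genes it was 18.8% in MN and 29.8% in TN7 (285 genes).

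The libraries of the groups did not overlap in 1251 of the 1470 lower and 475 of the 529 higher genes. Over all tested genes, every MN library was below every TN7 library in 13.6% and above every one in 12.9%. That left 1383 genes with MN wholly below and 2013 with MN wholly above that were not called. Of these, 1325 and 1920 differed by less than 2-fold. Dropping the fold limit left 2542 lower genes (13.1% of those tested) and 1418 higher ones (7.32%).

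The size of the difference was uneven between the directions. Among the lower genes, 49.4% differed by 2-fold to 4-fold, 21.4% by 4-fold to 8-fold, 10.3% by 8-fold to 16-fold, 7.21% by 16-fold to 32-fold and 11.7%, or 172 genes, by over 32-fold. Among the higher genes the same classes held 65.2%, 15.3%, 7.75%, 3.40% and 8.32%, the last with 44 genes. Without TN7 2 and TN7 5, 97.7% of the over 32-fold and 31.4% of the smallest class of lower genes were called, and 88.6% and 35.4% of the higher ones.

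Some genes were detected in MN or in TN7 but not in both. Of the tested genes, 37 had no count in any MN library and at least 1 CPM on average in TN7, and 13 had no count in TN7 and at least 1 CPM in MN. All 37 and all 13 were called, which their choice by the counts of these same libraries makes likely. A count of 0 allows up to 0.0286 CPM over the 5 MN libraries and up to 0.0368 CPM over the 4 TN7 libraries (3 counts over the group, counting error only). Sunraycer, the other nectarine, was below 0.5 CPM in 31 of the 37 and had no count of 12, while TN11, the other peach, had at least 0.5 CPM of 32. Of the 13 genes without a count in TN7, Sunraycer had at least 0.5 CPM of 6, and TN11 had at least 0.5 CPM of 4 and no count of 5. The shares of all tested genes past these limits in Sunraycer and TN11 are not given here. Among lower genes averaging at least 5 CPM in TN7, with no overlap between the groups, the 8 with the largest fold had between 9.76 and 232.7 CPM in TN7. 6 of them had no count in MN and the others at most 1 count over the 5 libraries. Sunraycer was below 0.5 CPM in 7 of the 8, and TN11 was at 1 CPM or more in 7. The 8 higher genes chosen the same way had between 6.25 and 35.4 CPM in MN, and 6 had no count in TN7. Sunraycer was below 0.5 CPM in 4 of these 8, and TN11 in 7. All 16 were also called without TN7 2 and TN7 5, which their choice for large folds and no overlap makes likely.

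Prupe.5G196100.v2.1 was singled out as the gene held to be the MYB gene of the G locus. Neither the count table nor the reference table names it, so that identity was not checked. Its level was 2.55, 2.24, 3.25, 4.27 and 4.08 CPM in MN 1, 3, 4, 5 and 6, against 17.8, 14.3, 18.9 and 16.5 CPM in TN7 1, 2, 3 and 5. Every MN library lay below every TN7 library. Its log2 fold change was −2.36 (SE 0.333, adjusted p = 5.65e-05 by edgeR), and −2.48 without TN7 2 and TN7 5 (adjusted p = 0.000522). It averaged 2.43 ± 1.63 CPM in Sunraycer and 44.7 ± 8.49 CPM in TN11 (SD, n = 5 each), a larger difference than between MN and TN7 (interaction log2 1.83, edgeR adjusted p = 0.00738, and 1.71 with adjusted p = 0.0549 without TN7 2 and TN7 5). Of the 20 tested genes next to it in the ID numbering, 10 on each side, 2 were called lower and 1 higher, close to the shares of 7.59% and 2.73% over all tested genes, and their median log2 fold change was 0.0742.

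The largest changes in CPM were in abundant genes, as a ranking by CPM difference favours, and most had modest folds. The size of the log2 fold change ran from 1.07 to 4.37 in the 6 largest losses and from 1.10 to 2.11 in the 6 largest gains. Prupe.5G011400.v2.1 had the largest loss, with 349, 306, 1067, 1006 and 813 CPM in the MN libraries, against 1577, 3522, 1246 and 3802 CPM in the TN7 libraries. The groups did not overlap, but MN 4 lay close to TN7 3, and TN7 2 and TN7 5 were far above the other libraries. Its log2 fold change was −1.84 (SE 0.477, adjusted p = 0.0108 by edgeR), and without TN7 2 and TN7 5 the log2 difference was −0.996 with adjusted p = 0.356, which ends the call. The other pair went the opposite way, with 3856 ± 1957 CPM in Sunraycer and 883 ± 363 CPM in TN11 (SD, n = 5 each).

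Prupe.1G128700.v2.1 fell more steeply. It had 26.2, 20.9, 41.9, 46.6 and 18.6 CPM in the MN libraries, against 499, 1057, 520 and 483 CPM in the TN7 libraries. All MN libraries were below 50 CPM and all TN7 libraries above 480 CPM. The log2 fold change was −4.37 (SE 0.446, edgeR adjusted p = 1.26e-06), a 20.7-fold difference, and −4.05 without TN7 2 and TN7 5. Its mean was 217 ± 136 CPM in Sunraycer (SD, n = 5) and 901 ± 233 CPM in TN11 (SD, n = 5), so that both nectarines were below both peaches.

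Prupe.1G477200.v2.1 had the largest gain. It had 9836, 10582, 8462, 9234 and 8753 CPM in the MN libraries, against 4736, 3710, 6069 and 2922 CPM in the TN7 libraries. The groups did not overlap, although the difference was only 2.15-fold (log2 1.10, SE 0.300, edgeR adjusted p = 0.0142). The call was lost without TN7 2 (log2 1.03, adjusted p = 0.0521), without TN7 5 (0.954, adjusted p = 0.0564) and without both (0.794, adjusted p = 0.263). Sunraycer averaged 7368 ± 2989 CPM and TN11 5591 ± 1316 CPM (SD, n = 5 each). Both means lay between those of MN and TN7, and the gene was not called in that pair.

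A close neighbour in the numbering, Prupe.1G477800.v2.1, rose, with a log2 fold change of 2.11 (SE 0.421, adjusted p = 0.00162 by edgeR). Its values were 3235, 5165, 3171, 2833 and 3158 CPM in the MN libraries, against 782, 765, 1207 and 493 CPM in the TN7 libraries. MN 3 was well above the other MN libraries, and every MN library was above every TN7 library. Sunraycer averaged 1901 ± 1463 CPM and TN11 1838 ± 447 CPM (SD, n = 5 each). These means also lay between those of MN and TN7, with no call in that pair. Without TN7 2 and TN7 5 the log2 value was 1.82 with adjusted p = 0.0568. Of the 6 genes with the largest loss and the 6 with the largest gain in CPM, 2 in all were called in that fit, and both were losses.

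**Figure D3:**
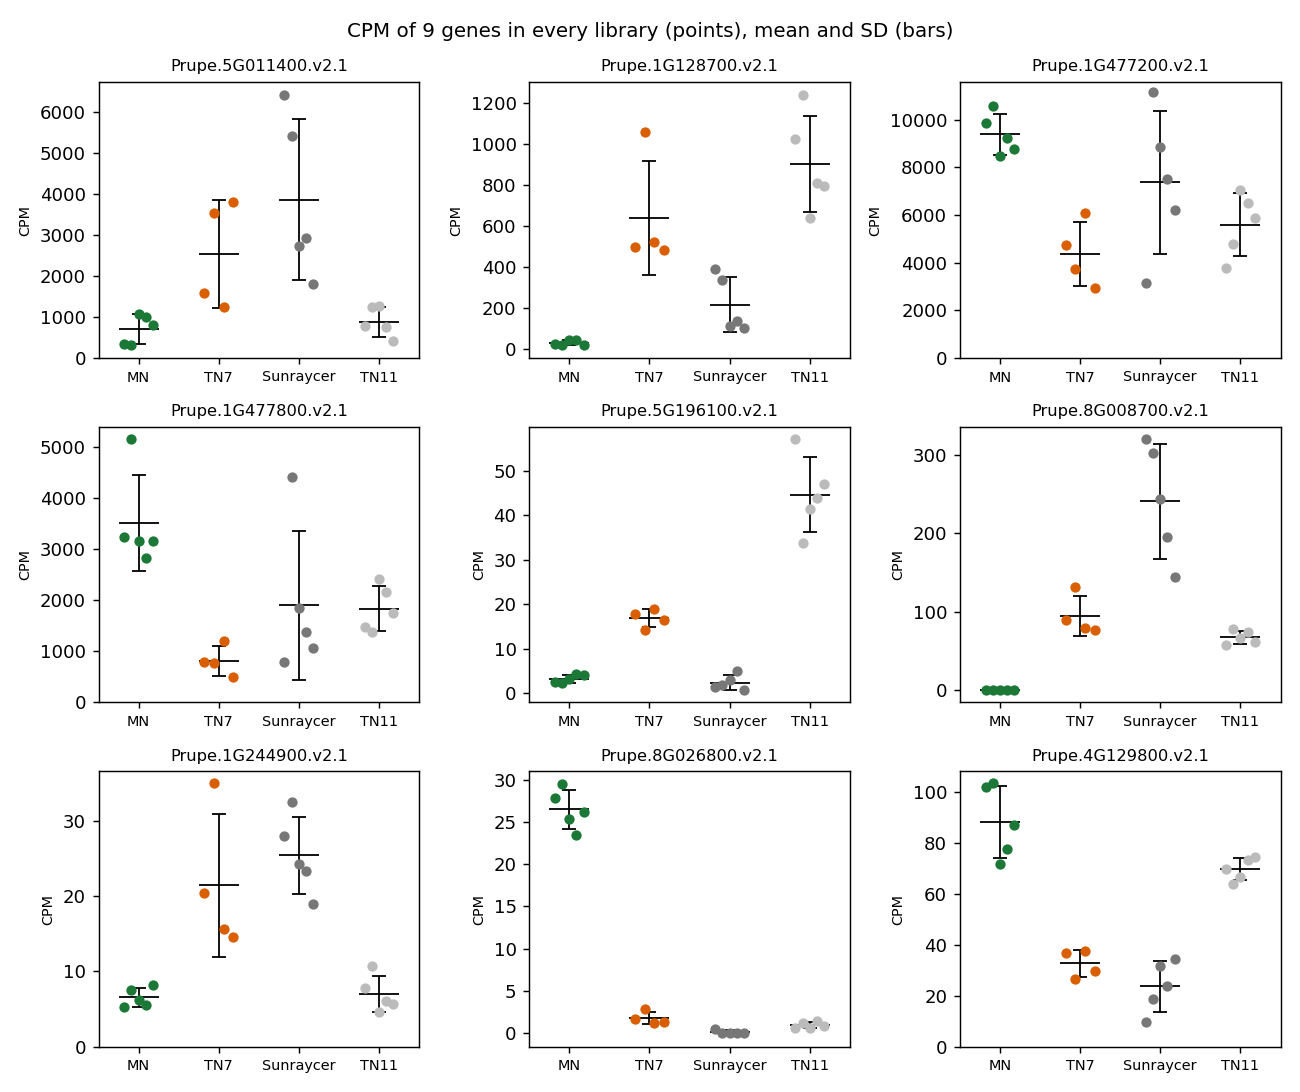
CPM of the 9 genes described by ID in every library, as points for MN, TN7, Sunraycer and TN11, with the mean and SD of each accession; each panel has its own axis from 0. MN and TN7 do not overlap in any panel, and Sunraycer and TN11 follow the same order in some genes and the opposite order in others. For the genes chosen for opposite calls in the pairs, both were part of the choice.

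The position of called genes was read from the IDs, which number genes along each of the 8 chromosomes. Lower genes ranged from 6.49% of the tested genes on chromosome 5 to 8.64% on chromosome 2, around the 7.59% of all genes. Higher genes ranged from 2.06% on chromosome 6 to 4.14% on chromosome 8 and 3.76% on chromosome 2. In 190 windows of 100 consecutive tested genes, the median was 7 lower and 2 higher genes, and 9 windows had 8 or more higher genes, 4 of them on chromosome 2 and 3 on chromosome 8.

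Adjacent windows with 8 or more higher genes formed 2 stretches, a rule set after the windows were seen. Between the tested genes ranked 301 and 600 of the 2339 on chromosome 2, 32 genes or 10.7% were higher in MN and 44 or 14.7% lower. Over the 200 tested genes that end at rank 300 of the 1932 on chromosome 8, 22 genes or 11% were higher and 19 or 9.5% lower. Outside the stretch on chromosome 2 the share of higher genes was 2.61%, and the rule itself gives a higher share inside a stretch than outside it. The median of all genes in these stretches stayed near 0, at −0.0601 and 0.0966 on the log2 scale. Of the 32 higher genes on chromosome 2, 12 or 37.5% were also called higher in Sunraycer relative to TN11, and of the 22 on chromosome 8, 5 or 22.7% were. That share was 27.8% over all genes higher in MN and 9.85% over all tested genes.

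**Figure D4:**
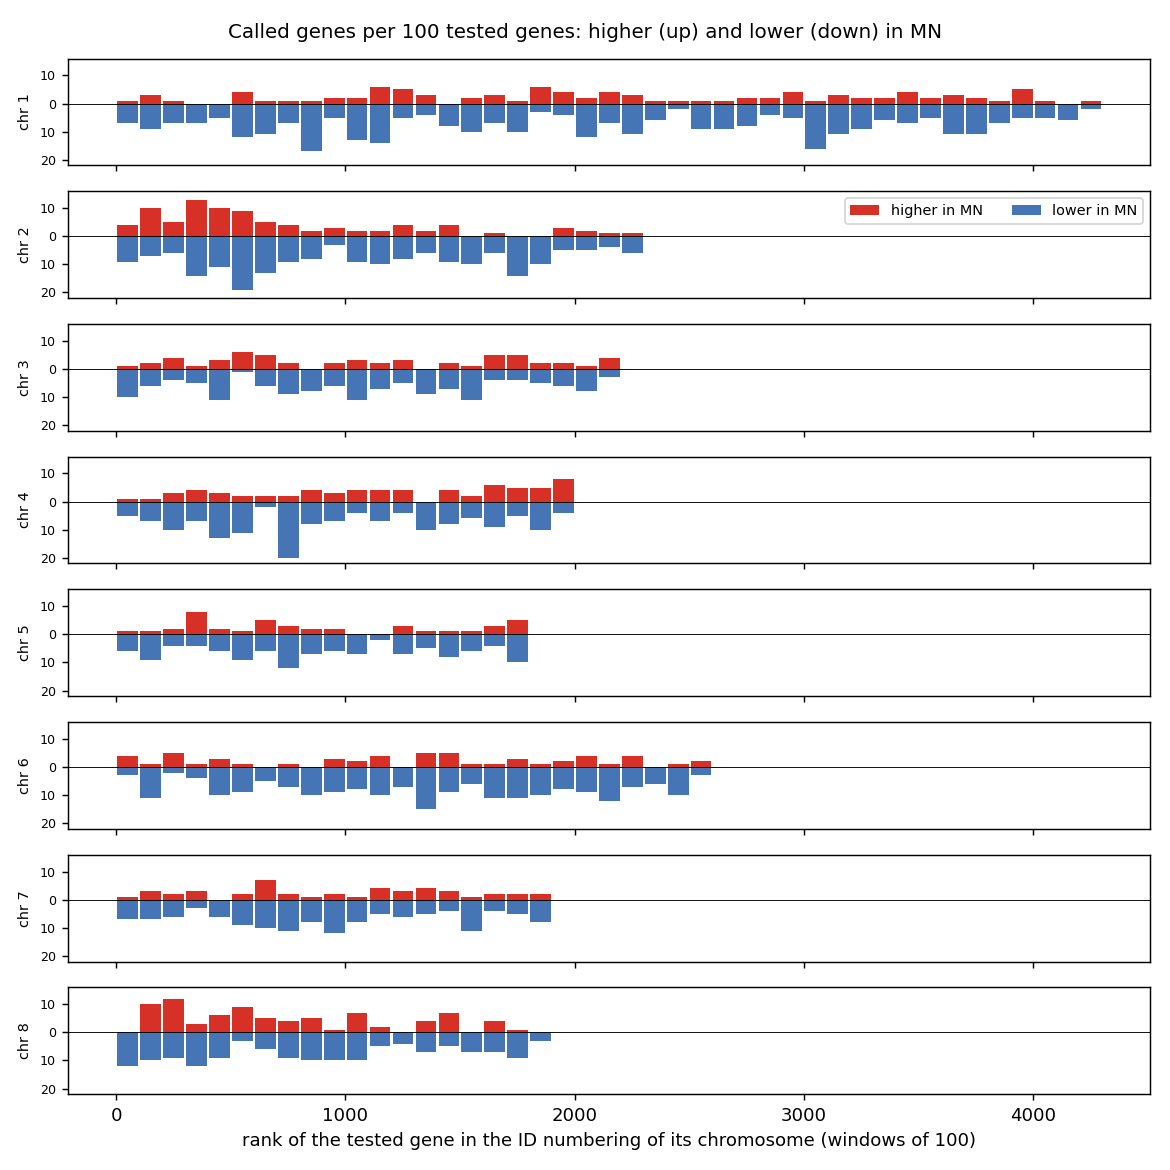
Number of genes called higher (up) and lower (down) in MN in windows of 100 consecutive tested genes, by rank in the ID numbering of each chromosome. The tallest upward bars stand near the start of chromosome 2 and of chromosome 8, with up to 13 of 100 genes; downward bars reach 20.

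Most called genes stood alone among the tested IDs, 1075 of the 1470 lower and 420 of the 529 higher ones. The others stood side by side in short runs, of which the longest are described here. The run lengths to be had by chance were not tested. The longest run of lower genes had 7 members in a row, at ranks 3640 to 3646 of the 4335 tested genes on chromosome 1. Their summed level was 5.55, 2.51, 46.9, 21.0 and 22.5 CPM in the MN libraries, against 275, 739, 178 and 985 CPM in the TN7 libraries. TN7 2 and TN7 5 were again the highest, but the groups did not overlap for any of the 7, and all 7 were called without those libraries. Over all lower genes those shares were 85.1% and 52.2%. Their log2 fold changes lay between −5.04 and −4.0. Their means ran from 0.260 to 117 CPM in Sunraycer and from 0.905 to 51.1 CPM in TN11. Of the 7, 5 had the higher mean in Sunraycer, and no member was called in that pair. The interaction was called, with MN minus TN7 the more negative, for 6 of the 7 (edgeR adjusted p below 0.05). Over all lower genes that share was 46.9%.

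A run of 6 lower genes stood on chromosome 4, at ranks 720 to 725 of 2001. Its summed level was 30.5, 23.1, 84.6, 66.3 and 38.3 CPM in the MN libraries, against 195, 418, 163 and 270 CPM in the TN7 libraries. 3 of the 6 had no count in MN, and 5 of the 6 did not overlap. Without TN7 2 and TN7 5, 5 of the 6 were called, and the first member of the run was not (log2 −1.14, edgeR adjusted p = 0.465). That gene was called the opposite way in the other pair, with 278 CPM in Sunraycer and 64.6 CPM in TN11 (means, n = 5 each). On chromosome 6, 5 lower genes in a row were nearly silent in MN, with summed levels of 0.113, 0.0898, 0, 0.237 and 0.139 CPM, against 6.63, 12.6, 5.13 and 8.92 CPM in the TN7 libraries. Their means were 0.154 to 0.667 CPM in Sunraycer and 1.29 to 3.32 CPM in TN11, and 4 of the 5 were called lower in that pair too. Of the 5, 4 were called without TN7 2 and TN7 5, and 4 when replicate numbers were blocked.

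The longest run of higher genes had 5 members, at ranks 242 to 246 on chromosome 8 (without TN7 3 the longest had 8). Its summed level was 22.5, 17.4, 26.5, 23.6 and 21.5 CPM in the MN libraries, against 6.63, 6.08, 5.18 and 4.41 CPM in the TN7 libraries. A run of 4 on chromosome 1, ranks 1867 to 1870, was close to silent in TN7: 23.05, 24.3, 23.4, 21.9 and 24.1 CPM in the MN libraries, against 0.167, 0.0964, 0.373 and 0.322 CPM in the TN7 libraries. Neither Sunraycer nor TN11 averaged above 0.251 CPM in any of its members. Neighbouring IDs can be near-identical copies that share reads, which could not be checked without their sequences, so the split of the counts within a run is uncertain.

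The other nectarine and peach, Sunraycer and TN11, share no library with MN and TN7. Both pairs were tested in the same fit, with shared estimates of each gene's spread, and the shares over all tested genes are not matched for level. Of the 1470 lower genes, 627 or 42.7% were also called lower in Sunraycer relative to TN11, which is 38.2% of the genes lower there, and 173 or 11.8% were called higher. Over all tested genes those shares were 8.49% and 9.85%. The share rose with the size of the difference: 32.2% of the lower genes of 2-fold to 4-fold, 36.2%, 55.0%, 61.3% and, over 32-fold, 76.2%. The share with the opposite call lay between 8.49% and 13.7% in these classes, near the background. Genes that stayed called without TN7 2 and TN7 5 had the same call in the other pair in 64.7% of 767, and the opposite one in 5.35%. For the 703 genes that were then not called the shares were 18.6% and 18.8%. The 767 had a median log2 fold change of −2.86 and the 703 one of −1.51, so the sets also differed in size of difference.

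Among the 529 higher genes, 147 or 27.8% were also called higher in Sunraycer relative to TN11, which is 7.71% of the genes higher there, and 65 or 12.3% were called lower. By size the share ran from 20.3% of the 345 genes of 2-fold to 4-fold to 22 of the 44 genes over 32-fold. It was 33.7% of the 264 genes called without TN7 2 and TN7 5 and 21.9% of the other 265. The median log2 fold change was 2.06 in the 264 and 1.36 in the 265.

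**Figure D5:**
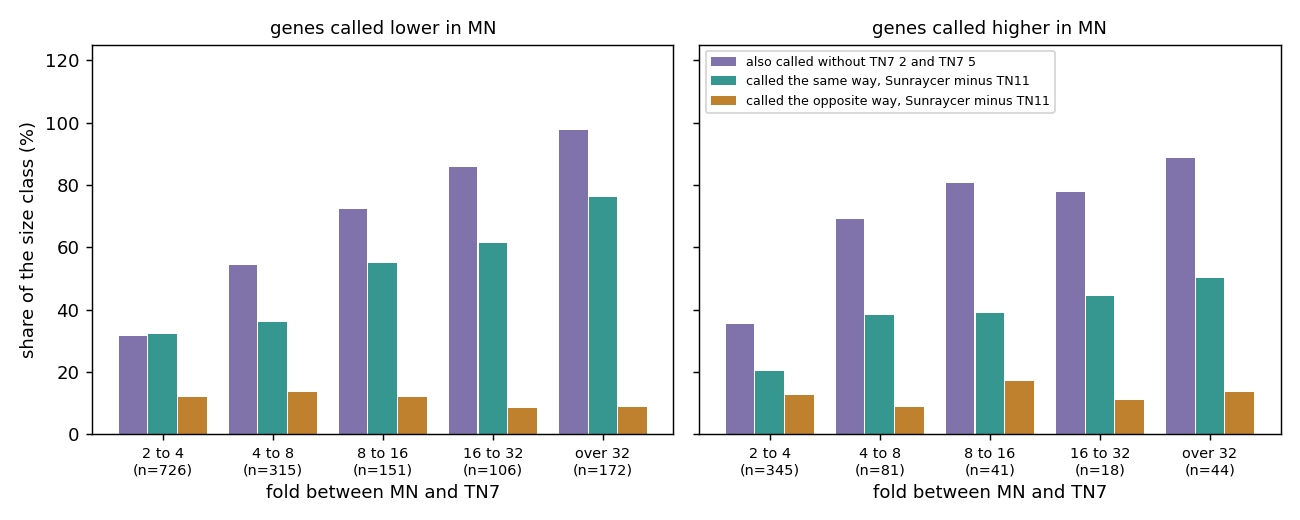
For genes called lower (left) and higher (right) in MN, by fold between MN and TN7, the share (%) also called without TN7 2 and TN7 5, called the same way in Sunraycer minus TN11, and called the opposite way there. Among lower genes the same-way share is 32.2% in the smallest and 76.2% in the largest class.

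Levels of Sunraycer and TN11 in the called genes were set beside those of MN and TN7. On a scale of log2(mean CPM + 0.5), Sunraycer was nearer to TN7 than to MN in 763 of the 1470 lower genes and nearer to MN in 707. TN11 was nearer to TN7 in 1282 of them (87.2%), and its median level less that of TN7 was 0.0604. Among the 529 higher genes Sunraycer was nearer to TN7 in 297 (56.1%) and TN11 in 370 (69.9%). The called genes were chosen on MN and TN7, so only the levels of Sunraycer and TN11 are free of that choice. Nearness is measured from the MN and TN7 means, so these counts are not free of it. The same counts over all tested genes are not given here.

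The difference between the pairs was tested directly as an interaction, (MN minus TN7) minus (Sunraycer minus TN11), and was called in 21.7% of all tested genes. It was lower in 13.4% and higher in 8.27%. It was called with the sign of the MN minus TN7 difference in 690 of the 1470 lower and 273 of the 529 higher genes, and not called in 687 and 233. These counts use the same MN and TN7 libraries as the calls themselves. Without TN7 2 and TN7 5 the interaction was called in 1693 genes, against 4199 with them.

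Genes called in opposite directions in the pairs were examined, a choice made after the values were seen. They had 20 CPM or more in MN or TN7, no overlap between MN and TN7, and a call that stayed without TN7 2 and TN7 5. Prupe.8G008700.v2.1 was nearly lost in MN. It had 0.170, 0.224, 0.361, 0.198 and 0.185 CPM in the MN libraries, 25 counts in all, against 88.9, 132, 79.2 and 76.2 CPM in the TN7 libraries. No MN library came near any library of another accession: Sunraycer averaged 241 ± 73.3 CPM and TN11 67.2 ± 8.55 CPM (SD, n = 5 each). The log2 fold change was −8.64 (SE 0.306, adjusted p = 2.61e-12 by edgeR), a 400-fold difference.

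Prupe.1G244900.v2.1 had 5.27, 7.495, 6.19, 5.53 and 8.24 CPM in the MN libraries, against 20.4, 35.0, 15.6 and 14.6 CPM in the TN7 libraries (log2 −1.71, SE 0.267, edgeR adjusted p = 0.000173). Sunraycer was at the level of TN7, with 25.4 ± 5.10 CPM, and TN11 at that of MN, with 6.97 ± 2.38 CPM (SD, n = 5 each).

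Prupe.8G026800.v2.1 had 27.9, 29.5, 25.4, 23.5 and 26.2 CPM in the MN libraries, against 1.71, 2.89, 1.26 and 1.34 CPM in the TN7 libraries. Its log2 fold change was 3.87 (SE 0.504, adjusted p = 2.22e-05 by edgeR), but in the other pair it was near the limit of detection. It had 0.518 CPM in 1 Sunraycer library and no count in the other 4, against 0.974 ± 0.372 CPM in TN11 (SD, n = 5), so its opposite call there rests on few reads. Prupe.4G129800.v2.1 had 102, 104, 72.0, 77.8 and 87.3 CPM in the MN libraries, against 36.9, 26.8, 37.8 and 29.8 CPM in the TN7 libraries (log2 1.43, SE 0.252, edgeR adjusted p = 0.000545). It ranged between 9.79 and 34.6 CPM over the 5 Sunraycer libraries and between 64.1 and 74.5 CPM over the 5 TN11 libraries, so that each pair had its higher level in a different kind of fruit.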

How the data were processed

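Per the labels' protocols, fruit RNA came from the RNeasy Plant Mini Kit and was sequenced from TruSeq Stranded mRNA libraries. The authors deposited one table of estimated counts per gene, all whole numbers and not normalized. Per the submitters' processing notes, which state no roles, the tools were Bowtie2 2.5.1, RSEM 1.2.31, R 4.1.1 and DESeq2. Build, strand setting and filters: not given in the sources used here. Reads shared between overlapping, antisense or near-identical genes could therefore not be checked.

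Columns were matched to samples by title, and 0 columns were left over. From the deposited estimated counts, filterByExpr kept 19360 of 26811 genes. TMM factors and edgeR's quasi-likelihood model (glmQLFit, glmQLFTest) were fitted over all 19 libraries with one mean per accession and no block, and MN minus TN7 was tested with Benjamini-Hochberg adjustment over all tested genes. A call needs adjusted p below 0.05 and at least 2-fold. SEs were taken as the absolute log2 value over the root of the F statistic. P-values measure the spread between these libraries, which may be technical. The libraries of a group were not copies of each other: counts of the closest pair, TN7 1 and TN7 3, gave a chi-square of 9.40 per degree of freedom. Library measures were compared with exact two-sided permutation tests.

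Replicate numbers 1, 3 and 5 occur in both groups, and deviations from the group mean of log2 CPM correlated across genes by 0.486, 0.424 and 0.419 between same-numbered libraries. That check does not show that the numbers pair the libraries. Libraries with different numbers correlated as strongly (0.594 for MN 4 with TN7 5, 0.462 for MN 3 with TN7 1) or nearly so (0.307 for MN 1 with TN7 3). A pairing by number is not given by the labels either.

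Genes described by ID were the one with the largest loss in CPM, the gene with the largest fold among the 6 largest losses that was called without TN7 2 and TN7 5, the 2 with the largest gains, Prupe.5G196100.v2.1 and 4 genes with opposite calls in the pairs. The members, lists and rules were chosen with earlier results of these data known. A total of 34 gene lists and a set of promoter motifs could not be applied, because the IDs match no names or sequences. Software used: edgeR 4.0.16, DESeq2 1.42.0 and limma 3.58.1 under R 4.3.3, and SciPy 1.17.1 under Python 3.11.15.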

Additional observations from a re-analysis of the deposited data

Results flagged for a closer look

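The difference between MN and TN7 was not that between Sunraycer and TN11 in several of the genes described by ID, by the test of the difference itself (edgeR adjusted p, values on the log2 scale as MN minus TN7 less Sunraycer minus TN11). It was −3.97 for Prupe.5G011400.v2.1 (adjusted p = 0.000545), which was lower in MN than in TN7 and higher in Sunraycer than in TN11. It was −2.32 for Prupe.1G128700.v2.1 (adjusted p = 0.00585), which fell in both nectarines. It was 2.06 for Prupe.1G477800.v2.1 (adjusted p = 0.00981; 1.77 and 0.0806 without TN7 2 and TN7 5) and 1.83 for Prupe.5G196100.v2.1 (adjusted p = 0.00738; 1.71 and 0.0549 without TN7 2 and TN7 5). The genes chosen for opposite calls in the pairs differ by that choice, with −10.5 for Prupe.8G008700.v2.1, −3.57 for Prupe.1G244900.v2.1, 7.18 for Prupe.8G026800.v2.1 and 2.98 for Prupe.4G129800.v2.1.

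Single libraries stood far from the rest of their group by Dixon's ratio in 3 of 28 groups of values, where about 1 in 20 is flagged by chance. TN7 2 had 1057 CPM of Prupe.1G128700.v2.1, and the other TN7 libraries 483 to 520. MN 3 had 5165 CPM of Prupe.1G477800.v2.1, and the other MN libraries 2833 to 3235. MN 4 had 0.361 CPM of Prupe.8G008700.v2.1, at a depth where the 5 MN libraries hold 25 counts in all.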

How the results depend on the processing

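The call rule and TN7 2 with TN7 5 moved the counts most. With adjusted p alone 3960 genes were called (2542 lower, 1418 higher), with at least 4-fold 928 (744 lower, 184 higher), and without TN7 2 and TN7 5, chosen after seeing the data, 1098 (791 lower, 307 higher), with 1693 for the interaction and 64.7% of the lower genes also lower in Sunraycer minus TN11. The cause was not tested, and that fit has only 2 TN7 libraries. Other settings stayed within 1.5 times: 1997 with RLE factors, 2179 without a filter, 1926 with limma-voom, 2253 with DESeq2 and 1883 with MN and TN7 alone. Leaving out one library gave 1582 (without TN7 2) to 2316 (without TN7 3) genes, 1163 to 1687 lower and 419 to 629 higher, and 2971 to 4626 for the interaction. The replicate block gave 1999 genes (1464 lower, 535 higher), of which 1486 are calls of the fit without it, and it changed no call of the 9 genes described by ID. The difference in the blocked fit comes only from numbers 1, 3 and 5, which occur in both groups. MN 4, MN 6 and TN7 2 add nothing to it. Over these genes, 153 of 162 alternative log2 fold changes kept direction and call. The 4-fold minimum ended 4 calls (Prupe.5G011400.v2.1, Prupe.1G477200.v2.1, Prupe.1G244900.v2.1 and Prupe.4G129800.v2.1), and leaving out TN7 2, TN7 5 or both ended 5, for Prupe.5G011400.v2.1, Prupe.1G477200.v2.1 and Prupe.1G477800.v2.1. Gene lists and promoter motifs were not run. Genes under 1 CPM rest on few reads, which limits their values.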
